A study of Mus musculus with 4 samples.

Results

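Pancreatic progenitor-like cells of the mouse embryo at embryonic day 12.5 (E12.5) were described here within a library of sorted intestinal epithelium. They were chosen by their own counts: at least 500 detected genes, at most 20% mitochondrial counts, at least 5000 unique molecular identifiers (UMIs, each standing for 1 captured RNA molecule), and at least 2 UMIs each of Cpa1 and Dlk1. Of 3510 E12.5 cells that passed the first 3 filters, 92 met the rule (2.62%, exact 95% Clopper-Pearson interval 2.12% to 3.20%), and the other 3418 were the comparison group. The deposited series holds 22731 cell barcodes in all.

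The series has 4 droplet libraries, 1 per group: E12.5, E17.5, adult and irradiated adult intestine, all from mice with the Bmi1-GFP allele, a reporter that places green fluorescent protein under the Bmi1 locus. At E12.5, per the labels' protocols, intestines were dissected from embryos before dissociation and sorting by flow cytometry. The number of embryos or animals per library, the age of the adults, the dose and time of the irradiation and the sorting gates are not given in the sources used here. With 1 library per group, and with members and other cells drawn from the same library, no difference had a replicate check and no test was made. All intervals below cover counting error only.

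The pancreas buds from the foregut endoderm next to the duodenum, and its early epithelium is marked by the transcription factors Pdx1, Ptf1a, Sox9 and Nkx6-1. As the buds branch, the tips keep Ptf1a and carboxypeptidase A1 (Cpa1) and later give acinar cells, which make digestive enzymes, while the trunk keeps Nkx6-1 and Sox9 and gives ducts and, through Neurog3, hormone cells. Dlk1 encodes a membrane protein related to Notch ligands and lies in an imprinted cluster with the long non-coding RNA Meg3, and Spp1 encodes osteopontin, a secreted glycoprotein made by ducts.

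Cpa1 lies at chr6:30639218-30645363 on the plus strand (GENCODE M21 annotation of GRCm38, matched by gene ID). Ptf1a lies at chr2:19445663-19447501, where it overlaps the antisense gene Ptf1aos, and Gc, the vitamin D binding protein gene that was among the highest of the selected cells, at chr5:89417522-89457898 on the minus strand. The PTF1 complex, in which Ptf1a pairs with an E protein and with Rbpj or Rbpjl, is known to bind an E-box (CANNTG) followed at a short distance by TTCCCA. The 250 bases before the start of Cpa1, of Ptf1a and of Gc are shown because the levels of these genes and of the complex's own subunits carry the description below. The sequences are from RefSeq (GRCm38.p6), 5′ to 3′ on the gene's strand, with CANNTG and TTCCCA, on either strand, in capitals.
Cpa1 (chr6:30638968-30639217, plus strand): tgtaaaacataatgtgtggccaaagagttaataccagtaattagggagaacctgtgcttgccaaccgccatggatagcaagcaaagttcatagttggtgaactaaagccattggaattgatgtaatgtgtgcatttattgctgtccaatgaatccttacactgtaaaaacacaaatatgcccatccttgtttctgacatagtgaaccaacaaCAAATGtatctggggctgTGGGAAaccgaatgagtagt
Ptf1a (chr2:19445413-19445662, plus strand): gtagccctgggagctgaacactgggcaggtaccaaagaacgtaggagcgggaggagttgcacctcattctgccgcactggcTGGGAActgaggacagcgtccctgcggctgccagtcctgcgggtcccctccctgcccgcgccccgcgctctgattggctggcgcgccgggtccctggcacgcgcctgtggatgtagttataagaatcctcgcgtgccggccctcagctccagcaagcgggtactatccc
Gc (chr5:89457899-89458148, minus strand): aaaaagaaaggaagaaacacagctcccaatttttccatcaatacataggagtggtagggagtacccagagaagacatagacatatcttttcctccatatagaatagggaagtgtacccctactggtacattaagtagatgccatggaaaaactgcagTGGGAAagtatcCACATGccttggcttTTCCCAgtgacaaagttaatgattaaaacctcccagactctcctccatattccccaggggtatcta

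Matches were counted on either strand and in any order. In the Cpa1 window the CANNTG match began at -38 and the TTCCCA match at -20, counted from the start, so that their first bases lay 18 apart. The latter reads TGGGAA on the printed strand, so this pair was not an E-box followed by TTCCCA on the same strand. The Gc window held a CANNTG match at -81 and a TTCCCA match with its first base 12 away, and the Ptf1a window held TTCCCA at -169 without CANNTG. Of 17 genes looked up (the rule genes and the 15 highest), 14 had at least 1 window in the table. Some had more, for 18 windows in all, of which 6 held both motifs. Overlapping windows of Mest held the same match, in which the words share bases. Counted by gene, 5 of the 14 held both. Both occurred in 14.8% of all 32851 windows in the table, CANNTG alone or with the other in 66.2% and TTCCCA in 21.6%, so either word is common in windows of this length. A match is only a match of letters, and its absence says nothing of the factor.

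The E12.5 library held 90674425 UMIs over 5216 barcodes, and the other libraries between 38648331 and 77677622 UMIs over 5232 to 6287 barcodes. The E12.5 library shared 9 barcodes with the E17.5 library, 12 with the adult and 6 with the irradiated adult, and 1, 1 and 0 of these were selected cells. Selected cells had a median of 24990.5 UMIs (range 5291 to 92011) and other E12.5 cells 21636. The median share of mitochondrial UMIs was 4.73% and 4.45%.

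Cpa1 and Dlk1 chose the cells, so their levels are a description. Cpa1 ranged from 2 to 184 UMIs per selected cell with a median of 13, and Dlk1 from 3 to 54 with a median of 16. Among other E12.5 cells, 33 of 3418 (0.965%) had any Cpa1 UMI, with at most 4, whereas 927 had a Dlk1 UMI. Cpa1 therefore did most of the selecting: 94 cells had at least 2 Cpa1 UMIs and 528 at least 2 Dlk1 UMIs. Just inside the threshold, 21 selected cells had 2 or 3 Cpa1 UMIs, and their summed counts gave 147.9 counts of Pdx1 per 1000000 UMIs (CPM) and 734 CPM of Spp1. Just outside it, 10 cells had 1 Cpa1 UMI with at least 2 of Dlk1, at 43.2 CPM of Pdx1 and 188 CPM of Spp1. The 2 cells with at least 2 Cpa1 UMIs but fewer than 2 of Dlk1 had 5.58 CPM of Pdx1 and 11.2 CPM of Spp1. Only 1 further cell met the rule among those with at least 2000 but under 5000 UMIs.

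**Figure D1:**
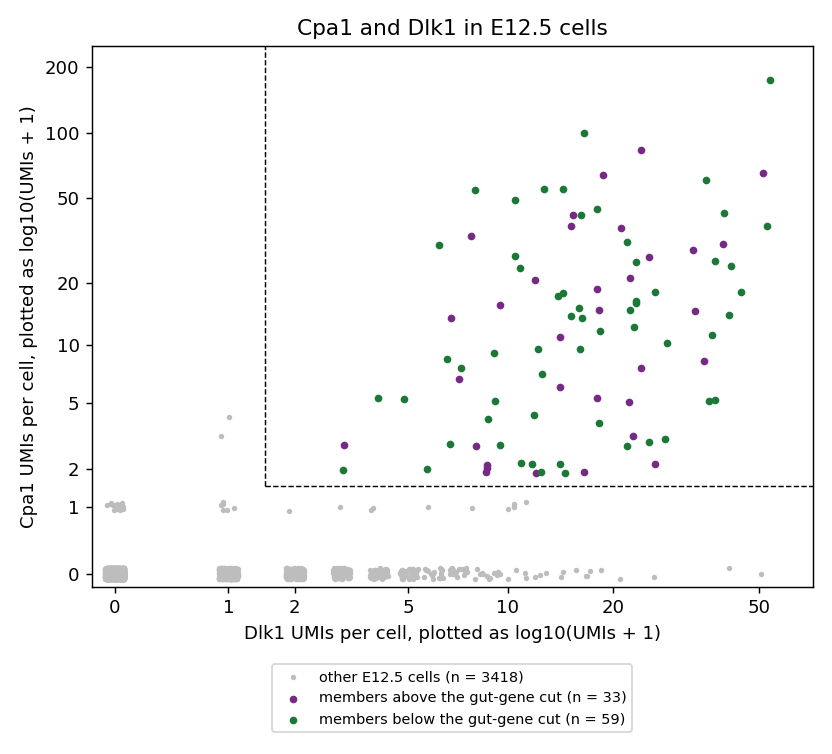
UMIs of Cpa1 (vertical) against Dlk1 (horizontal) in each of the 3510 E12.5 cells, both on a log10(UMIs + 1) scale with a small random offset so that points do not hide each other; dashed lines mark the rule. The 92 selected cells lie above and to the right of the lines, and 3385 of the others have no Cpa1 UMI. Colours divide the selected cells by their level of gut genes, described in the text.

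The selected cells did not form a single kind by the genes of gut epithelium. Over 14 genes of a gut epithelium list (among them Cdx1, Cdx2, Hnf4g, Isx, Shh, Ihh, Sox2, Osr1, Tff3, Vil1, Cdh17, Lgals4 and Fabp1), other E12.5 cells had a median sum of 1075 CPM, with the lower 25% of them below 889.9. A cut at 300 CPM, chosen after the values were seen, put 59 selected cells below it (gut-low) and 33 above it (gut-high), named in the plots as members below and above the gut-gene cut. The 59 gut-low cells had a median of 0 CPM and at most 267 CPM, and 35 of them had no UMI of any of the 14 genes. The 33 gut-high cells ran from 312 to 1079 CPM with a median of 655. Only 2 selected cells lay between 200 and 400 CPM, so few cells changed side near the cut.

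Depth and doublet score moved with this division. Gut-high cells had a median of 41219 UMIs and 6482 genes, and gut-low cells 17502 UMIs and 4409 genes. The median Scrublet doublet score, which is high where a cell resembles a sum of unlike cells, was 0.177 in gut-high cells, 0.0215 in gut-low cells and 0.0779 in other E12.5 cells. A score of at least 0.1 was reached by 31 of 33 gut-high, 2 of 59 gut-low and 1191 of 3418 other cells. Scrublet's automatic threshold called 0 of 4226 cells. Among the 185 highest-scoring cells, the number set by a rate of 0.8% per 1000 barcodes, were 12 gut-high and 0 gut-low cells. The part of shared droplets in the gut-high values was not tested. Both sets held the markers of the label, but gut-low cells held them nearly without gut genes and gut-high cells held pancreatic and gut genes together, so values of gut-low cells are given beside those of all 92 for the main genes and lists.

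**Figure D2:**
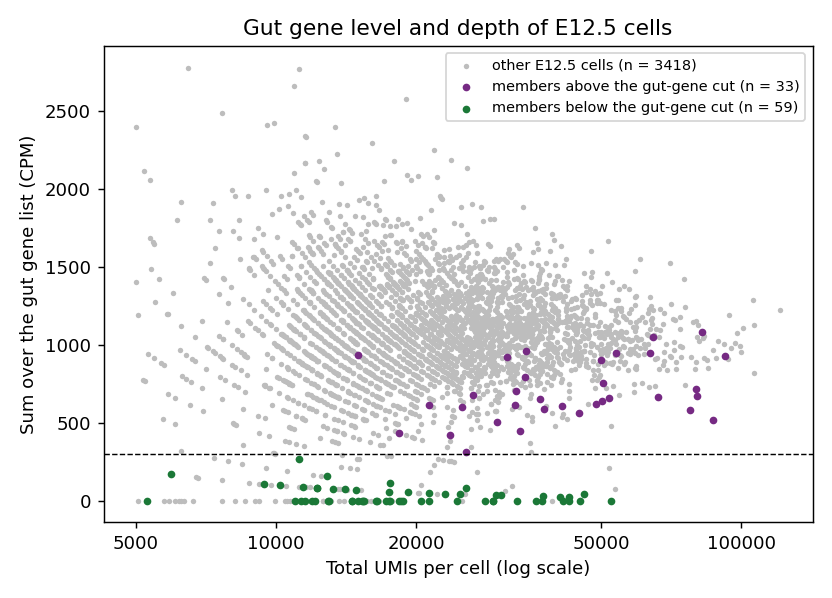
Summed CPM of the 14 gut genes (vertical) against total UMIs per cell on a log scale (horizontal) for the 3510 E12.5 cells; the dashed line is the 300 CPM cut. Gut-low cells lie at 0 to 267 CPM with 5291 to 52347 UMIs, and gut-high cells at 312 to 1079 CPM with 14974 to 92011 UMIs.

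Levels were compared as CPM of summed UMIs, with a log2 ratio after adding 1 CPM to each, over genes with a mean of at least 10 CPM. Since Cpa1 and Dlk1 were counted in the same cells, these contrasts describe the selected cells and support nothing further. Of 8302 genes, 221 (2.66%) were at least 2-fold higher in the 92 cells than in other E12.5 cells and 230 (2.77%) at least 2-fold lower, and the median over all genes was -0.05. For the gut-low cells alone the numbers were 387 (4.68%) and 521 (6.3%) of 8271. For the gut-high cells they were 108 (1.3%) and 33 (0.398%) of 8285.

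The transcription factors of early pancreatic epithelium were high together. Of 20 in the list, 19 reached the minimum, of which 12 were at least 2-fold higher in the 92 cells and 1 lower, with a median log2 ratio of 2.34. In gut-low cells 13 were higher and 3 lower, with a median of 2.96. These stand against the 2.66% and 4.68% of all genes.

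Ptf1a, the factor of acinar fate, was found in 54 of the 92 cells, with a median of 1 UMI and at most 16. Its level was 63.0 CPM (95% Poisson interval 54.1 to 73.0) against 0.0822 CPM in other cells, where 5 of 3418 had a UMI. In gut-low cells it was 95.6 CPM and in gut-high cells 36.3 CPM. Rbpjl, its acinar partner in the PTF1 complex, was at 39.2 CPM (32.2 to 47.2) against 0.106 CPM. Rbpjl (chr2:164403141-164415448, plus strand) overlaps Matn4 on the other strand by 2020 bases, and Matn4 was at 36.3 CPM in the same cells. The sources used here do not say whether counting used strand, so the split between these genes, and between Ptf1a and Ptf1aos, is uncertain.

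Nkx6-1, a factor of the trunk and of beta cells, was found in 80 of the 92 cells, with a median of 3 UMIs and at most 13. It was at 116 CPM (104 to 129) against 1.33 CPM, 87.5-fold higher (70.4 to 109), and at 190 CPM in gut-low cells. Pdx1, the factor that pancreas and duodenum both need, was found in 84 cells, with a median of 4 UMIs and at most 16. It was at 148 CPM (134 to 163) against 7.61 CPM, 19.5-fold higher (17.17 to 22.05), and 264 other cells (7.72%) also had a Pdx1 UMI. Sox9, the progenitor and duct factor, was found in 90 cells but also in 3036 other cells (88.8%). Its level of 371 CPM against 166 CPM was 2.23-fold higher (2.09 to 2.37), far less than for the other factors.

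Among the remaining regulators, Nkx2-2, a factor of hormone cells that is also present earlier, was at 52.3 CPM against 0.658 CPM. Hhex, needed for the ventral bud, was at 92.6 CPM against 4.76 CPM, and Prox1, a factor of early liver and pancreas, at 74.8 CPM against 8.84 CPM. Onecut1, which acts upstream of Pdx1, was at 21.7 CPM against 3.18 CPM, and Foxa2, a general endoderm factor, at 61.2 CPM against 28.1 CPM. Myc, which drives growth, was at 37.0 CPM against 6.52 CPM. Mnx1 (11.4 against 11.4 CPM) and Gata6 (104 against 128 CPM) lay within 2-fold.

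The endoderm factor Foxa1 was the regulator that went the other way. It was at 62.7 CPM in the 92 cells and 147 CPM in other cells, and in gut-low cells it was at 3.95 CPM (1.28 to 9.22), from 5 UMIs in 5 of 59 cells. Gata4 (12.6 against 41.8 CPM) and the Notch target Hes1 (155 against 370 CPM) were also at least 2-fold lower in gut-low cells, but not over all 92, where they were 1.43 and 1.45 times lower. Foxa1 and Foxa2 therefore took opposite positions in the gut-low cells, with Foxa2 at 75.1 CPM.

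Most selected cells held several of these factors at once. All 4 of Pdx1, Ptf1a, Sox9 and Nkx6-1 were detected in 44 of 92 cells, at least 3 of the 4 in 80, and fewer than 2 in none. Among other E12.5 cells, 25 of 3418 held at least 3 and 1 held all 4. Ptf1a and Nkx6-1, which later divide tip from trunk, were detected together in 47 cells, Ptf1a alone of the pair in 7, Nkx6-1 alone in 33 and neither in 5. In gut-low cells the same numbers were 32, 5, 19 and 3 of 59.

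Depth enters these shares, so cells were also thinned at random to 5000 UMIs each. Ptf1a was then found in 23.9% of the 92 cells (unthinned 58.7%), Nkx6-1 in 42.4% (unthinned 87.0%), Pdx1 in 58.7% (unthinned 91.3%) and Sox9 in 83.7% (unthinned 97.8%). In other E12.5 cells the thinned shares were 0.0293%, 0.614%, 2.87% and 52.1%. At equal depth Nkx6-1 was found in 57.6% of gut-low cells (34 of 59) and 15.2% of gut-high cells (5 of 33).

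The digestive enzymes were at an early and uneven level. Of 21 enzyme genes in the files, 7 reached the minimum, of which 5 were at least 2-fold higher and 1 lower, and in gut-low cells 6 of 8 were higher and 2 lower. Cpa1, a rule gene, is 1 of the 5. Clps, the colipase that helps pancreatic lipase, had the highest log2 ratio of the named genes, at 265 CPM (247 to 285) against 0.928 CPM, and ranged from 0 to 68 UMIs with 75 cells positive. The elastase Cela1 was at 31.3 CPM against 5.23 CPM, and the lipase-related Pnliprp1 at 33.1 CPM against 7.15 CPM.

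Enzymes that dominate a mature acinar cell were scarce. The chymotrypsinogen Ctrb1 had 26 UMIs, in 10 of the 92 cells, and the trypsinogen Prss2 13 UMIs, in 11 cells. Neither had a UMI in other E12.5 cells, which against a floor of 3 UMIs over that group makes them at least 263-fold and 131-fold higher. Reg1, a secreted acinar protein, was at 12.5 CPM in 24 cells. No UMI was found for Cela2a, Cela3b, Prss1, Pnlip, Rnase1, Cuzd1 or Gp2, which allows up to 1.07 CPM each over the 92 cells. Spink1, the trypsin inhibitor that gut epithelium also makes, was the enzyme-list gene that was lower, at 27.8 CPM against 64.6 CPM.

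Spp1 had the highest level of the 15 highest genes, with a median of 14 UMIs per selected cell (range 0 to 109) and 87 of 92 cells positive. It was at 717 CPM (686 to 749) against 14.6 CPM, 49.0-fold higher (45.7 to 52.7). Of the duct and trunk list, 9 of 12 genes reached the minimum, and 5 were higher and 2 lower (5 and 3 in gut-low cells). Muc1, a surface mucin of ducts, was at 17.4 CPM against 3.48 CPM. The 2 lower genes were the duct keratin Krt19 (118 against 263 CPM) and the chloride channel Cftr (8.55 against 30.8 CPM), which gut epithelium also expresses.

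The other genes of the 15 highest had varied functions. Gc was found in 89 of the 92 cells, with a median of 6 UMIs and at most 32, and was at 212 CPM (195 to 230) against 1.13 CPM. P2rx1, an ATP-gated ion channel, was at 68.0 CPM against 0.0822 CPM, and Chst2, a sulfotransferase, at 119 CPM against 1.03 CPM. Rhov, a small GTPase, was at 79.8 CPM against 1.02 CPM, and Cldn10, a tight junction protein, at 60.5 CPM against 0.987 CPM. Serpina6, the corticosteroid binding globulin, was at 57.7 CPM against 0.963 CPM, and Cavin2, a caveola protein, at 46.3 CPM against 0.752 CPM. Clps, Ptf1a, Nkx6-1, Spp1, Rbpjl, Mest and Nkx2-2 also belonged to the 15, whose log2 ratios ran from 4.75 to 7.11.

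Imprinted genes were prominent. Mest, a paternally expressed gene of the hydrolase family, was at 315 CPM (294 to 336) against 8.43 CPM and was found in 85 cells, with a median of 8 UMIs. Mest (chr6:30723547-30748465) begins 78183 bases beyond the end of Cpa1 and overlaps Copg2, so its counts carry the same uncertainty. Meg3 was found in all 92 cells, with a median of 47 UMIs (range 7 to 214), and was at 1801 CPM (1752 to 1852) against 579 CPM. It was also found in 97.2% of other cells, so it differed by level (3.11-fold, 3.02 to 3.20) and not by presence. Mirg, a non-coding RNA of the same cluster, was at 36.3 CPM against 9.71 CPM. Of 4 genes of the Dlk1-Dio3 cluster that reached the minimum, 3 were higher, Dlk1 being a rule gene, and Dio3 was 9.26 against 18.9 CPM. In gut-low cells Dio3 had 1 UMI (0.790 CPM) and fell under the minimum, and the same 3 genes were higher. Of 13 other imprinted genes, 3 were at least 2-fold higher (Mest, Slc38a4 and Zim1) and 0 lower, with a median log2 ratio of 0.57, and in gut-low cells 5 of 14 were higher and 1 lower. Dlk1 and Meg3 lie 77664 bases apart in the same cluster. Across the 59 gut-low cells they had a Spearman rho of -0.04, too weak to read at these counts. Dlk1 is a rule gene, so that value covers only cells that met the rule.

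**Figure D3:**
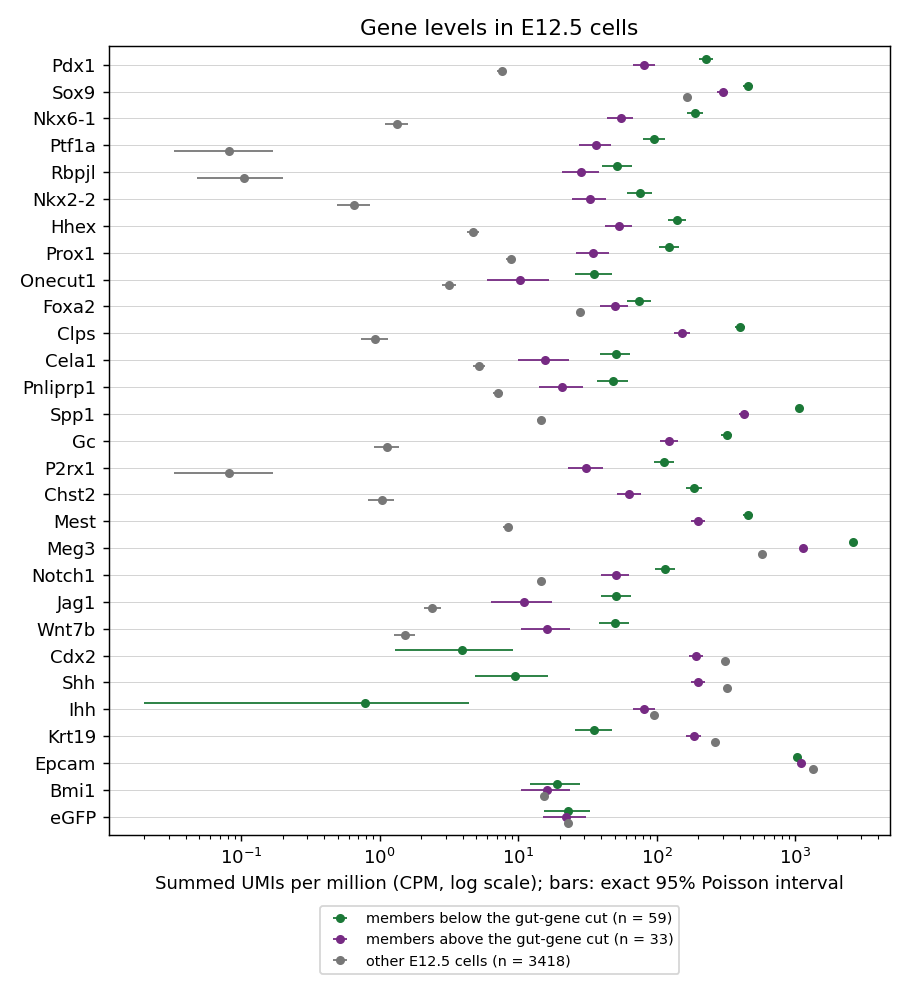
Level of named genes as CPM of summed UMIs on a log scale, in 59 gut-low cells, 33 gut-high cells and 3418 other E12.5 cells; points are levels and bars exact 95% Poisson intervals. For pancreatic genes from Pdx1 to Wnt7b the gut-low points lie highest and the gut-high points between them and the other cells, and for Cdx2, Shh, Ihh and Krt19 the order is turned. The Bmi1 and eGFP intervals overlap in all 3 groups.

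The 15 lowest genes over all 92 cells were less extreme than the highest, with log2 ratios from -2.28 (H2-M3) to -1.71 (Nes). They included Cps1, a urea cycle enzyme also found in gut (7.83 against 29.7 CPM), the potassium channel subunit Kcne3 (4.27 against 21.8 CPM) and the matrix proteoglycan Vcan (57.0 against 188 CPM). In gut-low cells the same direction was far larger. The 14 genes of the cut are a description there, since they chose the cells: Cdx2, the hindgut and intestinal factor, had 5 UMIs in 59 cells (3.95 CPM against 312 CPM), and the homeobox gene Isx none.

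Genes outside the cut were as low in the gut-low cells. Pitx1, a homeobox factor known from the hindlimb, and Osr2, a zinc finger factor, had 0 UMIs, against 121 and 118 CPM in other cells. Against a floor of 3 UMIs over the group (2.37 CPM) they were at least 51.1 and 49.9 times lower. The glucose transporter Slc2a3 also had 0 UMIs, at least 22.5 times lower. Tspan8, a membrane protein of gut epithelium, was at 3.95 CPM against 345 CPM, and the galectin Lgals2 at 12.6 CPM against 624 CPM. Onecut2, the only gene of the gut list kept out of the cut, was less strongly lowered. It was at 27.7 CPM against 205 CPM and was found in 17 of 59 gut-low cells.

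Gut-high cells held both sets at once. Cdx2 was at 194 CPM, Shh at 199.6 CPM and Isx at 69.4 CPM, each 1.61 times lower than in other E12.5 cells, while Ptf1a was at 36.3 CPM and Nkx6-1 at 55.1 CPM, 441-fold and 41.5-fold higher. Per cell, the median UMIs of several pancreatic genes were close in the 2 sets although the depth was not. The median per cell was 14 UMIs of Spp1 in both, 8 of Mest in both, 46 and 49 of Meg3 in gut-low and gut-high cells, 4 and 3 of Pdx1, and 3 and 4 of Clps. For gut genes the median of gut-high cells was close to that of other cells: 8 and 7 UMIs of Cdx2, 7 and 7 of Shh, 3 and 3 of Foxa1. For other pancreatic genes the medians in gut-low and gut-high cells were 3 and 2 UMIs of Nkx6-1, 2 and 1 of P2rx1 and 4 and 2 of Chst2. In CPM the gut-low cells were 1.83-fold (Rbpjl) to 4.54-fold (Cldn10) higher than the gut-high cells for the 15 highest genes, with Spp1 at 2.49-fold (2.27 to 2.74). Pdx1 was 2.81-fold higher (2.27 to 3.49), and Sox9, which other cells also hold, 1.53-fold. Over all genes with the minimum, 273 (3.32%) were at least 2-fold higher in gut-low than in gut-high cells and 336 (4.09%) lower, of 8217.

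Clustering without Cpa1 and Dlk1 gathered the same cells. Of 16 clusters at resolution 1, a single cluster of 136 cells held 90 of the 92, with all 59 gut-low and 31 of 33 gut-high cells, and the remaining 2 lay in 2 clusters of 217 and 205 cells. At resolution 2 it divided: a cluster of 71 cells held 58 gut-low and 3 gut-high cells, and a cluster of 54 cells held 27 gut-high cells. These clusters were built from the same counts that chose the cells and are no test. The 46 cells of the shared cluster that did not meet the rule had Pdx1 at 186 CPM, Spp1 at 663 CPM and Meg3 at 2361 CPM, but Ptf1a at 4.02 CPM. They were rich in the hormone gene Gcg (3185 CPM), the granule protein gene Chgb (549 CPM) and Afp (776 CPM), and stay unnamed. In the 92 cells the same 3 genes were at 1.07, 15.7 and 66.2 CPM.

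Within the 59 gut-low cells, Clps and Cpa1 took the opposite order to Spp1. The Spearman rho of Clps with Spp1 was -0.58, the most extreme of 253 pairs computed among 22 genes and the total UMIs, and that of Cpa1 with Spp1 was -0.39. Such an order was not seen with the trunk factors Sox9 and Nkx6-1. Clps had a rho of 0.15 with Sox9 and -0.08 with Nkx6-1, and Cpa1 of 0.12 and -0.11. Spp1 and Sox9 had a rho of 0.02. All cells share a library, and CPM values share each cell's total. Cpa1 is also a rule gene, so cells below its threshold are absent from every Cpa1 value given here. The rho values and the Cpa1 medians below are therefore descriptions. The rho of total UMIs was -0.02 with Clps and 0.13 with Spp1. The 4 gut-low cells without a Spp1 UMI had 13 to 44 Clps UMIs, 1010 to 2649 CPM, and a median of 53 Cpa1 UMIs. The 11 gut-low cells without a Clps UMI had 4 to 68 Spp1 UMIs, 520 to 3826 CPM, and a median of 3 Cpa1 UMIs. Between these ends, 44 cells held both genes.

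Clps was also ordered with Cpa1 (0.47), P2rx1 (0.48), Chst2 (0.48) and Myc (0.47), and against Cdkn1c (-0.57), the imprinted cell cycle inhibitor. Spp1 went with Cdkn1c (0.49). Ptf1a and Nkx6-1 had a rho of -0.11 and Nkx6-1 and Spp1 0.10, values too weak to read at these counts. Of 3778 genes detected in at least 50% of the gut-low cells, Rbp4, the retinol binding protein (0.53), and Vtn, vitronectin (0.51), were most like Cpa1, followed by Clps and Parm1 (0.47 each). The genes most like Spp1 were Nudt19 (0.57), Cdkn1c (0.49), Wnt7b (0.49) and Id3 (0.49). Since Cpa1 chose the cells, its order with other genes covers only cells that met the rule.

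**Figure D4:**
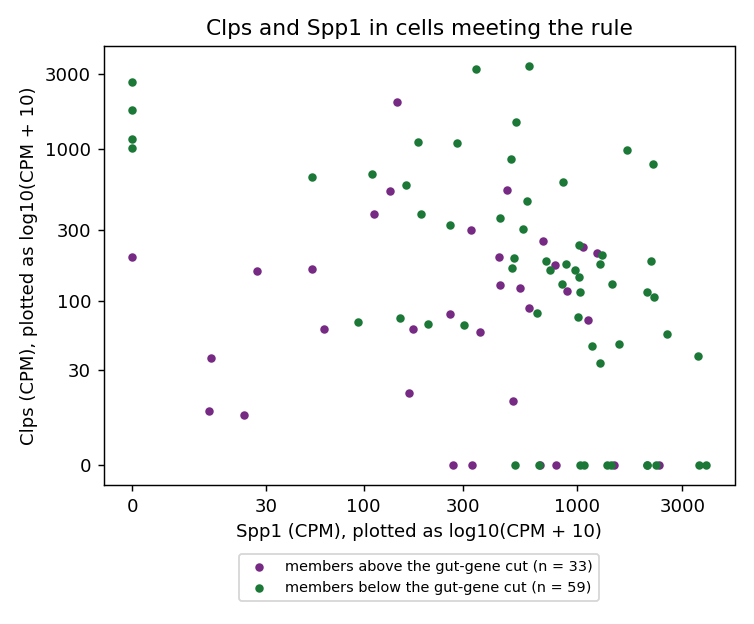
CPM of Clps (vertical) against Spp1 (horizontal) in each of the 92 selected cells, both on a log10(CPM + 10) scale. Among the 59 gut-low cells, the 4 without Spp1 lie at 1010 to 2649 CPM of Clps and the 11 without Clps at 520 to 3826 CPM of Spp1, with 44 cells between.

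Hormone genes were absent or near 0, while the factor that precedes them was found in a few cells. Neurog3, the factor that starts the endocrine program, had 24 UMIs in 12 of the 92 cells (8 gut-low), against 7 UMIs in 5 of 3418 other cells, or 8.55 against 0.0822 CPM. In 11 of the 12 cells Nkx6-1 was also detected, and in 8 Ptf1a. Its target Insm1 had 26 UMIs in 8 cells, 4 of them gut-low. Ins1, Ins2, Sst, Iapp, Pcsk2 and Neurod2 had 0 UMIs, and Gcg 3 UMIs in all. Chgb had 44 UMIs, all in 2 gut-low cells, 1 of them with 43. Only 3 of 22 genes of this list reached the minimum, Chgb higher and Gcg and Rfx6 lower, and their median log2 ratio of -1.04 turned positive under other settings given in the closing section. The other E12.5 cells include the Gcg-rich cells of the shared cluster described above, so their Gcg level is not that of gut epithelium in general.

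Of the signalling genes, Notch1, a receptor, was at 79.8 CPM against 14.7 CPM (5.42-fold, 4.68 to 6.25) and its ligand Jag1 at 29.2 CPM against 2.41 CPM (12.1-fold, 9.27 to 15.7). These were the 2 genes at least 2-fold higher of 6 Notch pathway genes, and 0 were lower. In gut-low cells these 2 were also higher and 1, Hes1, lower. The Notch ligand Dll1, under the minimum, was at 8.19 against 1.503 CPM. In the Wnt pathway the ligand Wnt7b was at 31.3 CPM against 1.52 CPM (20.7-fold, 15.6 to 27.3), 1 of 13 genes higher, and the Wnt target Sp5 was the 1 lower (10.3 against 26.7 CPM). In gut-low cells 1 of 13 was higher and 5 lower: Sp5, with 0 UMIs, the Wnt inhibitor Sfrp5 (2.37 against 63.8 CPM), the receptors Lgr4 and Fzd5, and Rnf43. Of 5 Hedgehog pathway genes 3 were lower and 0 higher: the ligands Shh (114 against 321 CPM) and Ihh (45.2 against 96.5 CPM), both also on the gut list, and Gli3 (6.41 against 17.5 CPM). In gut-low cells 2 of 4 were lower, Shh and Ihh, which chose those cells. None of 9 FGF and ERK pathway genes was 2-fold apart over all 92 cells, but 4 of 8 were in gut-low cells. There the transcription factors Etv4 (19.8 against 9.33 CPM) and Etv5 (19.8 against 9.16 CPM) were higher, and the ligand Fgf9 (5.53 against 35.7 CPM) and the inhibitor Spry1 (20.5 against 58.1 CPM) lower. Of 7 retinoid pathway genes 0 were higher and 3 lower (the receptor Rarb, Crabp2 and Cyp26b1), while Crabp1, a retinoid binding protein under the minimum, was at 12.1 against 0.634 CPM. In gut-low cells Crabp1 passed the minimum and was the 1 of 7 higher (19.8 CPM), and 4 were lower: Rarb, Crabp2, Dhrs3 and Rara.

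Cell cycle genes were within 2-fold. None of 15 G2/M genes and none of 17 S phase genes was 2-fold apart in the 92 cells. After thinning to 5000 UMIs, 63 of 92 cells (68.5%, 58.0% to 77.8%) had at least 3 UMIs of the 15 G2/M genes, against 75.3% of other E12.5 cells (73.8% to 76.7%). The share was 54.2% (32 of 59, 40.8% to 67.3%) in gut-low cells and 93.9% (31 of 33, 79.8% to 99.3%) in gut-high cells. Without thinning the shares were 79.7% and 97.0%, and 88.3% in other cells.

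The reporter was present in the selected cells at the level of the others. The eGFP transcript was at 22.4 CPM (17.2 to 28.7) in 45 of 92 cells and at 23.1 CPM (22.1 to 24.1) in other cells, and Bmi1 at 17.4 CPM (12.9 to 23.1) and 15.5 CPM (14.7 to 16.4). Of 10 genes that reached the minimum in a list of eGFP, Bmi1 and genes of its complex, 0 were 2-fold apart. In gut-low cells 1 was lower, Cbx2 (12.6 against 30.8 CPM). Epithelial genes were shared: Epcam was at 1069 CPM in all 92 cells and at 1339 CPM in others, and 0 of 9 general epithelial genes were 2-fold higher and 1, Krt19, lower. In gut-low cells 3 were lower: Krt19, Krt18 and the tight junction gene Cldn7 (187 against 469 CPM).

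Markers of other lineages gave the following sums in the 92 cells and in the others. The 12 mesenchyme genes summed to 24.9 and 78.0 CPM, mostly Postn (to 38.9 CPM in gut-high and 7.90 CPM in gut-low cells for the whole list), with Barx1, Col1a1, Col1a2, Foxf1, Lum and Nkx3-2 at 0. The 6 smooth muscle genes summed to 4.27 and 15.1 CPM, the 5 mesothelium genes to 1.78 and 7.33 CPM, and the 7 enteric neural crest genes to 18.2 and 18.6 CPM. The 6 endothelium genes summed to 0.356 and 1.69 CPM, and the 7 blood genes to 0.356 and 0.576 CPM, each list at 1 UMI. For liver, a neighbouring organ, the 11 listed genes summed to 745 and 905 CPM, and to 685 CPM in gut-low cells. Of 7 that reached the minimum, 0 were higher and 2 lower in the 92 cells. Afp was at 66.2 against 69.1 CPM and Alb had 2 UMIs. For bile duct, the 6 listed genes summed to 909 and 801 CPM, where Hhex and Muc1 were higher, Krt19 lower and Sox17 had 5 UMIs. Of 7 genes of the response to dissociation 0 were higher and 1, Atf3, lower, and 5 were lower in gut-low cells, where Egr1 was at 72.7 CPM against 349 CPM.

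The same rule was applied to the other libraries. At E17.5, 306 of 4036 cells met it (7.58%, 6.78% to 8.44%). In the adult 0 of 1447 cells met it and in the irradiated adult 0 of 2135, which allows shares of up to 0.207% and 0.141%. No adult or irradiated cell had a Cpa1 UMI. Of the remaining E17.5 cells, 23.9% had a Cpa1 UMI, 65.9% a Clps UMI and 74.8% a Ctrb1 UMI, at a median depth of 13496.5 UMIs against 16164.5 in the cells meeting the rule. Free RNA can give such UMIs, and can carry a cell over the rule, and no cell type known to lack these genes was set beside them. These shares are therefore not read as expression, and the part of free RNA in them was not tested. Each stage is a single library, so stage and library cannot be told apart.

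The E17.5 cells meeting the rule were mixed: pooled, they held enzymes at high levels and also hormones. Ctrb1 was at 66756 CPM against 9.26 CPM in the E12.5 cells (7210-fold, 4921 to 11038), Pnliprp1 at 29816 against 33.1 CPM and Clps at 26148 against 265 CPM. Cela3b, Prss1 and Rnase1, without a UMI at E12.5, were at 3441, 3216 and 2396 CPM, at least 3221-fold, 3010-fold and 2242-fold higher. Of the hormones, Ins2 was at 833 CPM, found in 93 of 306 cells with at most 2109 UMIs in a cell, Ghrl at 280 CPM (89 cells), Sst at 186 CPM (33 cells) and Gcg at 125 CPM (53 cells), each with a median of 0 UMIs. In the remaining E17.5 cells Ins2 was at 3564 CPM, Ctrb1 was at 3908 CPM and Clps at 1830 CPM. Ptf1a was at 244 CPM at E17.5 and 63.0 CPM at E12.5 (3.87-fold, 3.30 to 4.55), and Rbpjl at 544 and 39.2 CPM (13.9-fold, 11.48 to 16.97).

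Many, but not all, progenitor and trunk genes had the opposite order between the stages. Nkx6-1 was at 9.57 CPM at E17.5 and 116 CPM at E12.5, 12.1-fold higher at E12.5, and was found in 33 of 306 E17.5 cells. Hhex was 6.58-fold, Prox1 5.39-fold, Pdx1 5.12-fold, Sox9 4.74-fold and Mest 4.34-fold higher at E12.5. Meg3 was 3.41-fold higher at E12.5. Gata4 (1.12-fold at E17.5 over E12.5, 0.853 to 1.47), Hes1 (1.03-fold, 0.937 to 1.13) and Myc (0.797-fold, 0.617 to 1.03) had intervals that include 1. All these folds pool gut-low and gut-high cells at E12.5. Against gut-low cells alone, E17.5 over E12.5 was 2.58-fold for Gata4, 1.69-fold for Hes1 and 0.511-fold for Myc, without intervals. On that basis Nkx6-1 was 19.9-fold, Hhex 10.0-fold, Prox1 8.89-fold and Pdx1 7.92-fold higher at E12.5. Mest was 6.27-fold, Sox9 5.85-fold and Meg3 4.95-fold higher there. The duct mucin Muc1 was 4.91-fold higher at E17.5 (3.65 to 6.73), and 3.73-fold higher against gut-low cells alone. Gc (155 CPM at E17.5), Chst2 (176 CPM), P2rx1 (196 CPM) and Nr5a2 (86.6 CPM) lay within 3-fold of their E12.5 levels. Spp1 was at 528 CPM, but its median was 0 UMIs and it was found in 60 of 306 cells. The eGFP transcript was at 0.782 CPM in the E17.5 cells, from 4 UMIs, and at 1.14 CPM in the remaining E17.5 cells.

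**Figure D5:**
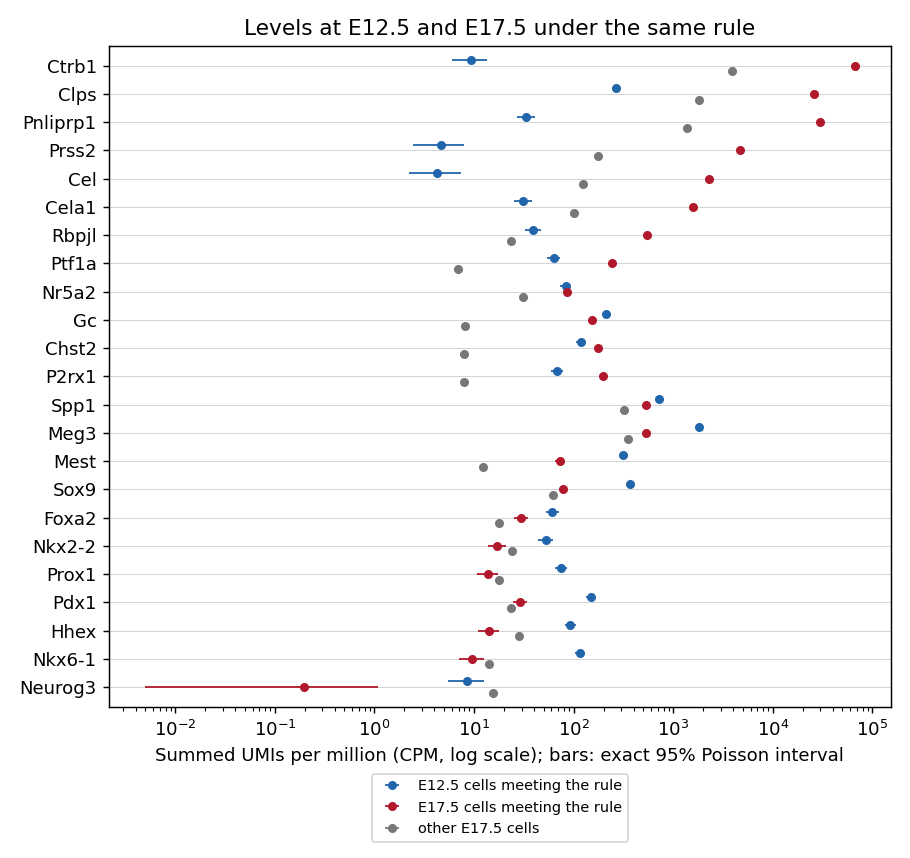
CPM of named genes on a log scale in the 92 E12.5 and 306 E17.5 cells meeting the rule and in the remaining E17.5 cells; bars are exact 95% Poisson intervals. Enzymes from Ctrb1 to Cela1 lie furthest to the right in the E17.5 cells meeting the rule, while Sox9, Prox1, Pdx1, Hhex and Nkx6-1 lie to the right at E12.5.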

How the data were processed

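The authors deposited, for each of the 4 libraries, a matrix of raw UMI counts per gene and barcode, made with Cell Ranger 3.1.0 on the mm10 genome per the submitters' processing notes. The deposited counts were whole and not normalized. Sums over cells were divided by their total (CPM), with exact Poisson intervals on levels, exact conditional intervals on folds and Clopper-Pearson intervals on shares. Genes with a mean of at least 10 CPM in the compared groups entered counts of 2-fold differences. Named genes were the 15 highest and 15 lowest log2 ratios among genes with at least 100 UMIs and in 25% of cells of the higher group (without the rule genes, mitochondrial, ribosomal, globin and predicted genes), plus the fixed lists. The members and lists were chosen with earlier results of these data known. Scanpy 1.11.5 gave Scrublet scores and, with leidenalg 0.10.2, clusters (2000 variable genes, 30 components, 20 neighbours). No doublet was removed from the main values. Of 31054 features, 99.9% matched GENCODE M21 by ID. The level script was tested on simulated data. Alternatives included edgeR 4.0.16 TMM factors. Some genes of the lists and of the 15 highest are counted but not reported here by name.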

Additional observations from a re-analysis of the deposited data

How the results depend on the processing

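No paired analysis was possible because each group is a single library. Among the alternatives, those restricted to gut-low or gut-high cells were added after the data were seen. They hold 59 and 33 of the 92 cells, with 387 and 108 genes at least 2-fold higher, 521 and 33 lower, and cycling shares of 54.2% and 93.9%. The 221 higher genes became 143 and the 230 lower 85 with a pseudocount of 10 CPM, 622 and 636 without a minimum level, and 50 and 57 with a minimum of 50 CPM. With at least 1 UMI each of Cpa1 and Dlk1 (110 cells) 126 genes were lower, and with the mean of the cells' CPM 357. The cycling share was 85.9% without thinning and 80.9% at 10000 UMIs. The median log2 ratio of hormone cell genes, over 3 genes, turned from -1.04 to 3.32 with at least 1 UMI each and to 0.37 with the mean of the cells' CPM, and the cause was not tested. Of 41 named genes past 2-fold, all 41 stayed so in the same direction under the other settings, apart from 40 with at least 1 UMI each, 35 with a pseudocount of 10 CPM and 31 in gut-high cells. Removing the 185 highest-scoring cells left 80 of the 92. Depth limits absent genes to 1.07 CPM over the 92 cells.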
